A study of Homo sapiens with 6 samples.

Results

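The Notch receptors NOTCH1, NOTCH2 and NOTCH3, the ligands JAG1, JAG2, DLL1 and DLL4, the repressors HES1 and HEY1 and the secretory factor ATOH1 were followed in colorectal cancer cells that overexpress RNF186, a RING-type ubiquitin ligase. These 10 genes were picked by name as the genes that set absorptive against secretory fate, and their rows were found by Entrez identifier. All 10 had values, among 17563 genes with values in the table.

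RNA was sequenced from Ls174t, an established human colorectal adenocarcinoma line that makes mucin. The RNF186 group held 3 cultures of a stable line labelled RNF186-overexpression, and the Vector group held 3 cultures of a control line labelled Vector. Each line was split into 3 dishes of 6 cm and harvested untreated after 48 h in DMEM with 10% FBS and 1% Penicillin-Streptomycin. Each group is therefore 1 line, and its spread and every p-value measure dishes of that line, not independently made lines.

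Notch is a receptor for ligands on neighbouring cells. Ligand binding leads to cleavage of the receptor, first by ADAM proteases and then by γ-secretase, and the released intracellular domain joins the DNA-binding protein RBPJ to switch on HES and HEY genes. In the intestinal crypt HES1 represses ATOH1, so that cells with active Notch take the absorptive path, while cells that keep ATOH1 become goblet, Paneth or enteroendocrine cells and display Delta-like ligands to their neighbours. The measurements here are of RNA only, so neither receptor cleavage nor ligand on the cell surface was measured.

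RNF186 itself was at 451.72, 577.47 and 484.61 FPKM (fragments scaled to gene length and to the size of the library) in the RNF186 cultures and at 0.69, 0.71 and 0.61 FPKM in the Vector cultures, as labelled. Summed FPKM per library ran from 387477.6 to 396199.9 in RNF186 cells and from 398674.4 to 412391.1 in Vector cells. Read depth per library is unknown, because the files hold no counts. All 10 colorectal epithelial markers that were looked up were tested, and 3 were called higher (EPCAM, CDH1 and CDX2), 6 lower and 1 neither way. Over all tested genes 19.9% were called higher and 18.9% lower. KRT8, the most abundant, was at 2750 ± 227 FPKM in RNF186 cells and 3650 ± 175 in Vector cells (SD, n = 3 each). EPCAM was at 592 ± 38.3 FPKM in RNF186 cells and 512 ± 12.4 in Vector cells. The 10 together, a sum carried mainly by KRT8 and KRT18, summed to 5248.65 to 5737.62 FPKM in RNF186 cells and 6497.4 to 7094.16 FPKM in Vector cells. In these bulk samples fewer cells of a type and less RNA per cell cannot be told apart. Markers of other cell types were low except LYZ. Endothelial markers, relevant because DLL4 is also an endothelial ligand, summed to 1.3 to 1.67 FPKM in RNF186 cells and 2.09 to 2.23 FPKM in Vector cells over 7 genes. ESAM made up most of that sum and was called lower (limma, adjusted p = 0.00745), CDH5 was at 0.02 in each RNF186 culture and listed at 0 in each Vector culture, and VWF did not exceed 0.02 in any culture. The leukocyte list (21.17 to 22.26 FPKM in RNF186 cells and 17.0 to 18.53 in Vector cells) consisted mainly of LYZ, which Paneth cells also make. LYZ was at 19 ± 0.422 FPKM in RNF186 cells and 15.6 ± 0.86 in Vector cells and was called higher (limma, adjusted p = 0.00441). PTPRC was at 2.13 ± 0.284 FPKM in RNF186 cells and 2.08 ± 0.189 in Vector cells, and CD3E at 0 in 5 of 6 libraries. The part of these marker levels in the results was not tested. Fibroblast markers, led by PDGFRB, summed to no more than 0.08 FPKM in RNF186 cells and 0.16 in Vector cells. Retinal markers, led by CRX, summed to no more than 1.59 FPKM in RNF186 cells and 1.98 in Vector cells.

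The promoter of HES1, the classical Notch target, is shown beside that of DLL4, the gene among the 10 with the smallest adjusted p. Both sequences are the 250 bases before the RefSeq start of the gene in build GRCh38.p14, 5′ to 3′ on the plus strand. The HES1 window is chr3:194135898-194136147 and the DLL4 window is chr15:40929090-40929339. Capitals mark matches to TGGGAA, the core of the RBPJ binding sequence, or to its longer form GTGGGAA, which overlaps it. Both strands were searched.
HES1: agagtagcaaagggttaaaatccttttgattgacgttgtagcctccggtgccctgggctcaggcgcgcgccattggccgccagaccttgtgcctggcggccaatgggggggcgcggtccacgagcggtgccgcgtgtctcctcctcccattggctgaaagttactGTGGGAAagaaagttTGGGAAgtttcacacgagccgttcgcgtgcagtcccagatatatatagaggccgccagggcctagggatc
DLL4: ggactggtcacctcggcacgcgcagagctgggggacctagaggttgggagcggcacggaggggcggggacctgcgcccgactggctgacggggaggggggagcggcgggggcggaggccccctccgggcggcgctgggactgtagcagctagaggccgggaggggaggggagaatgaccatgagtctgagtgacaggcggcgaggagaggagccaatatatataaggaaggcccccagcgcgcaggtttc

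The HES1 window held TGGGAA at 2 places, and the first of these was part of GTGGGAA, which starts 85 bases before the gene's start. The other starts 70 bases before it. Among 8 of the 10 genes with an entry in the RefSeq promoter table, HES1 was the only one with TGGGAA in this window, and 20.8% of 35114 promoter windows of that length held it. For GTGGGAA that share was 5.43%. CACNAG, the N-box that HES1 protein binds to repress its own gene in the mouse, matched 3 times in HES1 and once each in NOTCH3 and ATOH1, and 32.0% of all windows held it. A match is a run of letters and not a measured binding site. DLL1 and HEY1 had no entry in that table.

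By level, the cells carried mainly JAG1, NOTCH1, NOTCH2 and HES1. JAG1, the Jagged ligand, was highest in both groups, at 30.7 ± 0.255 FPKM in RNF186 cells and 32.4 ± 0.97 in Vector cells, above 85.7% and 86.3% of the genes with values in the same order. NOTCH1 came next, then HES1 and NOTCH2, whose values overlapped with each other in both groups. DLL4 and DLL1 stood in the middle, with DLL4 above DLL1 in all 3 RNF186 cultures and below it in all 3 Vector cultures. JAG2, HEY1, ATOH1 and NOTCH3 were at the low end, around or under 1 FPKM. In RNF186 cells JAG2 overlapped HEY1 and ATOH1 overlapped NOTCH3, while HEY1 (lowest 0.98 FPKM) stayed above ATOH1 (highest 0.92). In Vector cells JAG2 overlapped ATOH1 and ATOH1 overlapped HEY1, while HEY1 (lowest 0.33 FPKM) stayed above NOTCH3 (highest 0.27). The order of genes that overlapped is not resolved.

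**Figure D1:**
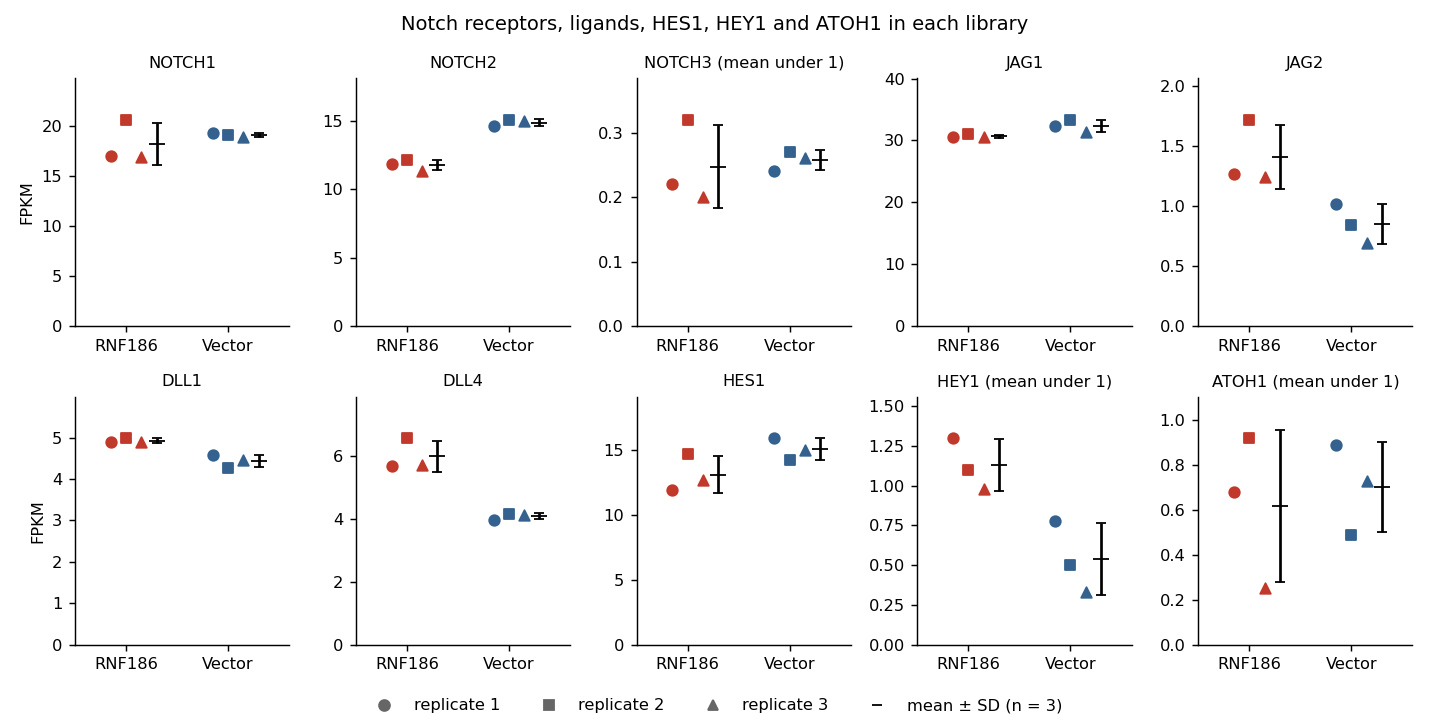
FPKM of the 10 genes in each culture, on linear axes from 0, with RNF186 cultures left of Vector cultures. Marker shape gives the replicate and the bar beside the points the mean ± SD of 3 cultures. NOTCH2 and JAG1 are lower and DLL4, DLL1, JAG2 and HEY1 are higher in every RNF186 culture than in any Vector culture. Of all tested genes 49.5% separate in this way. The values of ATOH1 overlap fully.

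Groups were compared on log2(FPKM + 1) with limma over the 11632 genes that averaged at least 1 FPKM, and genes with a two-sided adjusted p under 0.05 count as called, with Benjamini-Hochberg adjustment over all of them. Changes are RNF186 minus Vector on that scale, which understates the change of low genes. Of the 10 genes, 7 passed the filter. DLL4 and JAG2 were called higher, NOTCH2 was called lower and 4 were not called. JAG2 averaged 1.41 FPKM in RNF186 cells and 0.85 in Vector cells. It thus entered both the tested and the called genes only through its RNF186 cultures. Across all tested genes 38.8% were called, 19.9% higher and 18.9% lower, so a share of 3 in 7 does not stand out from the background. Rescaling to TPM changed the split over all genes from 51.3% of calls higher to 63.1%.

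Among the receptors, NOTCH2, a close paralogue of NOTCH1, fell. It was at 11.9, 12.15 and 11.38 FPKM in RNF186 cultures, against 14.67, 15.11 and 15.03 FPKM in Vector cultures. The groups did not overlap, and the means were 11.8 ± 0.393 and 14.9 ± 0.234 FPKM (SD, n = 3 each), a ratio of 0.791. The log2 change was -0.32 with a standard error of 0.053 and a 95% interval from -0.43 to -0.2 (limma, adjusted p = 0.00138). It stayed called under all 17 other settings tried, with changes from -0.37 to -0.28.

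NOTCH1, the receptor known with NOTCH2 for keeping crypt progenitors undifferentiated in the mouse intestine, was at 17.04, 20.64 and 16.92 FPKM in RNF186 cultures and at 19.31, 19.15 and 18.92 FPKM in Vector cultures. RNF186 replicates 1 and 3 lay below all Vector cultures and replicate 2 above them. The change was -0.07, with 95% limits of -0.24 and 0.09, and was not called (limma, adjusted p = 0.46). Without RNF186 replicate 2 it was -0.16 and called (limma, adjusted p = 0.016), and with array weights it was called as well (adjusted p = 0.0261). Of all tested genes 48.7% and 54.8% were called under these settings, against 38.8% as reported. Once trends with transcript length and GC content had been removed from every library it was 0.065 and not called (adjusted p = 0.205). That correction also takes out differences between the groups that follow length or GC content. NOTCH3, better known from smooth muscle, was at 0.22, 0.32 and 0.2 FPKM in RNF186 cultures and 0.24, 0.27 and 0.26 in Vector cultures. That is under the filter, and the values overlapped (exact permutation test, two-sided p = 0.9, where 3 against 3 cannot go below 0.1).

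NOTCH1 thus made up 60.0 ± 2.03% of the summed receptor FPKM in RNF186 cells and 55.7 ± 0.586% in Vector cells (SD, n = 3 each). NOTCH2 held 39.1 ± 2.15% and 43.5 ± 0.551% in the same order, and NOTCH3 under 1% in every culture. The receptor sum was 29.16, 33.11 and 28.5 FPKM in RNF186 cultures, and 34.22, 34.53 and 34.21 FPKM in Vector cultures. In FPKM as deposited every RNF186 culture was below every Vector culture. The summed FPKM of all genes was also lower in RNF186 libraries (387477.6 to 396199.9) than in Vector libraries (398674.4 to 412391.1). The receptor sum was not rescaled for this, and no share of all genes stands beside a sum.

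Of the ligands, DLL4 and JAG2 rose, and DLL1 and JAG1 were not called. DLL4, a Delta-like ligand that in the mouse crypt acts together with DLL1, was at 5.7, 6.57 and 5.71 FPKM in RNF186 cultures, against 3.98, 4.17 and 4.13 FPKM in Vector cultures. All RNF186 cultures were higher. The means were 5.99 ± 0.499 and 4.09 ± 0.1 FPKM, a ratio of 1.46, and the log2 change was 0.46 with a standard error of 0.072 and a 95% interval from 0.3 to 0.62 (limma, adjusted p = 0.000964). It was called under all 17 other settings, with changes from 0.40 to 0.55.

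DLL1, the ligand shown by secretory progenitors, was at 4.9, 4.99 and 4.89 FPKM in RNF186 cultures and at 4.58, 4.28 and 4.46 FPKM in Vector cultures. The groups did not overlap, but the change was 0.12, with 95% limits of -0.02 and 0.26, and was not called (limma, adjusted p = 0.149). With the length and GC correction it was 0.23 and called (limma, adjusted p = 0.017), as were 47.4% of all tested genes.

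JAG1 was at 30.54, 31.02 and 30.63 FPKM in RNF186 cultures and at 32.37, 33.35 and 31.41 FPKM in Vector cultures. Here too every RNF186 culture was below every Vector culture in FPKM as deposited, by a small step. These values were not rescaled for the lower summed FPKM of the RNF186 libraries. The change of -0.07 had a 95% interval from -0.17 to 0.03 (limma, adjusted p = 0.238) and was called under none of the 17 other settings. JAG2, the less abundant Jagged ligand, was at 1.27, 1.72 and 1.24 FPKM in RNF186 cultures, against 1.02, 0.84 and 0.69 FPKM in Vector cultures. All RNF186 cultures were higher, RNF186 replicate 2 most. The log2 change was 0.38 with a standard error of 0.108 and a 95% interval from 0.14 to 0.62 (limma, adjusted p = 0.0195). JAG2 averaged only 0.85 FPKM in Vector cells and passed the filter through the RNF186 cultures, so a difference was built into its passing. Its call ended with quantile normalization (adjusted p = 0.0599), without Vector replicate 2 (0.0567) or without Vector replicate 3 (0.0705), and its change ran from 0.27 to 0.67 over 16 other settings. It was not among the genes averaging at least 5 FPKM.

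As a share of the summed ligand FPKM, JAG1 held 71.4 ± 1.18% in RNF186 cells and 77.5 ± 0.577% in Vector cells. DLL4 held 13.9 ± 0.808% in RNF186 cells and 9.79 ± 0.305% in Vector cells, and DLL1 11.5 ± 0.153% and 10.6 ± 0.551% in the same order. The ratio of DLL4 to DLL1 was 1.16, 1.32 and 1.17 in RNF186 cultures and 0.869, 0.974 and 0.926 in Vector cultures. The ligand sum itself was 43.1 ± 1.07 FPKM in RNF186 cells and 41.8 ± 0.989 FPKM in Vector cells, with overlapping cultures.

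HES1, the repressor that carries the Notch signal to ATOH1, was at 11.95, 14.71 and 12.71 FPKM in RNF186 cultures and at 15.94, 14.26 and 15.06 FPKM in Vector cultures. RNF186 replicates 1 and 3 were below every Vector culture, and replicate 2 lay within the Vector range. The means were 13.1 ± 1.43 and 15.1 ± 0.84 FPKM, and the change of -0.19 (standard error 0.077) had a 95% interval from -0.36 to -0.02. It was not called (limma, adjusted p = 0.0747). It was called without RNF186 replicate 2 (change -0.27, limma, adjusted p = 0.00412) and with array weights (adjusted p = 0.00682). The length and GC correction also gave a call (-0.20, adjusted p = 0.0387). In the same order 48.7%, 54.8% and 47.4% of all tested genes were called, beside 38.8% as reported. The sign for HES1 was negative under all 17 other settings.

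HEY1, a related repressor, was at 1.3, 1.1 and 0.98 FPKM in RNF186 cultures and at 0.78, 0.5 and 0.33 FPKM in Vector cultures. Every RNF186 culture was higher, and the ratio of the means (1.13 ± 0.162 over 0.537 ± 0.227 FPKM) was 2.1. With a mean of 0.832 FPKM over all cultures it was under the filter. The difference was 0.48 on log2(FPKM + 1) (exact permutation test, two-sided p = 0.1, the smallest that 3 against 3 allows). In the fit without a filter HEY1 was called (limma, adjusted p = 0.0218), as were 25.6% of all genes. Against a pseudocount of 0.1 the difference was 1.00, so its size rests on the pseudocount.

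ATOH1, the basic helix-loop-helix factor that commits crypt cells to secretory fates, was low in all cultures. It was at 0.68, 0.92 and 0.25 FPKM in RNF186 cultures and at 0.89, 0.49 and 0.73 FPKM in Vector cultures. The highest and the lowest value both came from RNF186 cultures, and the Vector values lay between them. The means were 0.617 ± 0.339 and 0.703 ± 0.201 FPKM, and the difference of -0.09 on log2(FPKM + 1) was within the spread between dishes (exact permutation test, two-sided p = 0.7). The fit without a filter gave an adjusted p of 0.732 (limma). Leaving out 1 library moved the difference between -0.23 and 0.08, so the data give it no direction.

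**Figure D2:**
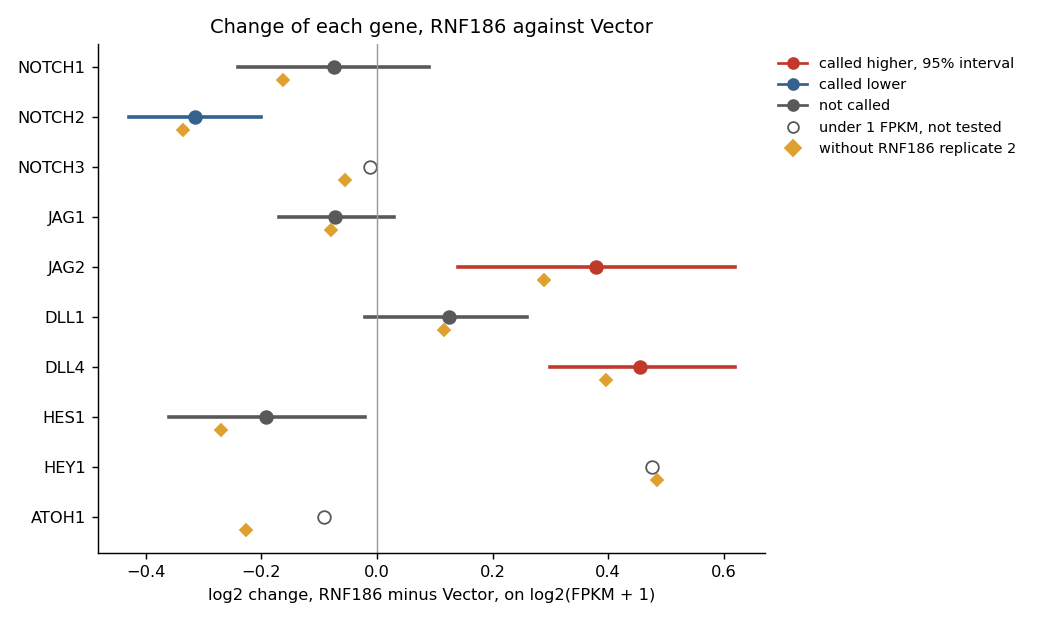
Change of each gene, RNF186 minus Vector, on log2(FPKM + 1), with 95% intervals from limma for the 7 tested genes and open circles for the 3 genes under the filter. Diamonds give the change without RNF186 replicate 2, at -0.27 for HES1 and -0.16 for NOTCH1. The intervals of NOTCH2, JAG2 and DLL4 lie farthest from 0.

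Of the 10 genes, 6 had groups that did not overlap, and 5 of these were among the 7 tested. Across all tested genes 49.5% had groups that did not overlap.

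**Figure D3:**
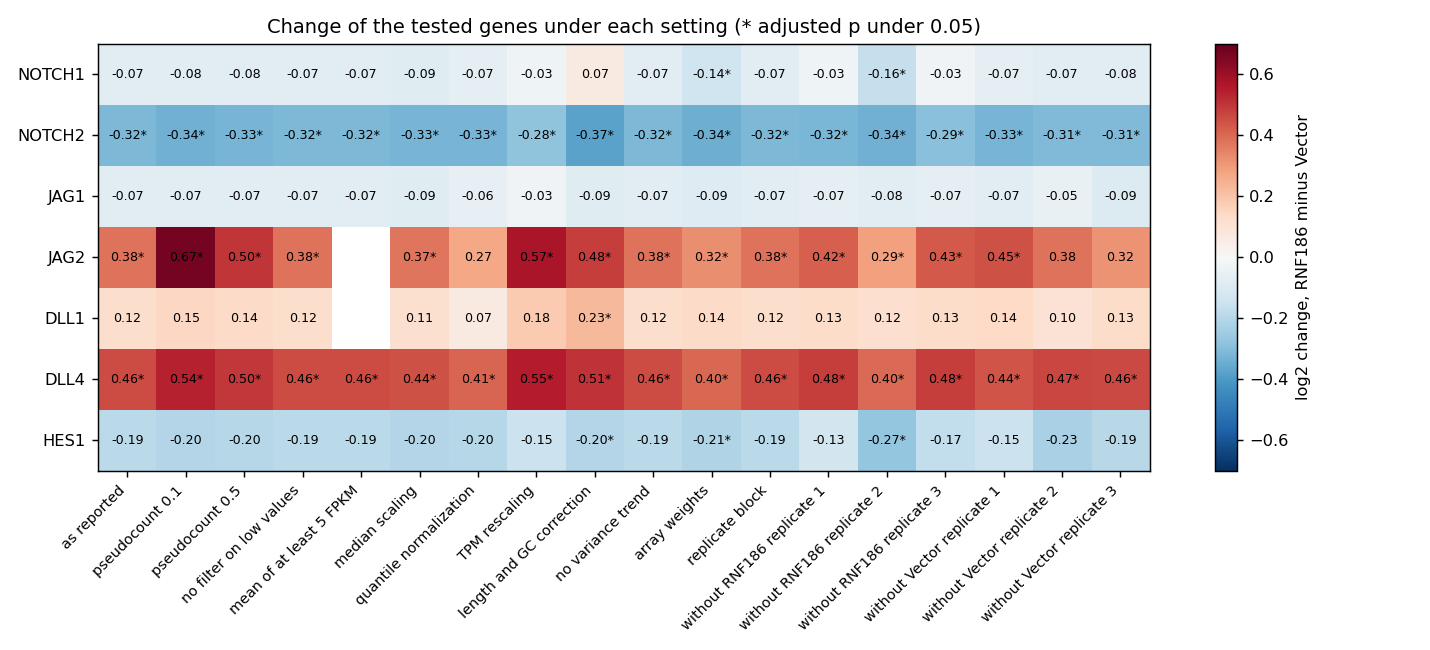
Change of the 7 tested genes, RNF186 minus Vector on the log2 scale, as reported and under 17 other settings, with an asterisk where the adjusted p was under 0.05 and a blank where the gene was not tested. NOTCH2 and DLL4 carry an asterisk in every column. HES1 and NOTCH1 gain one without RNF186 replicate 2 and with array weights, HES1 also with the length and GC correction, where NOTCH1 changes sign. In the same order these settings called 48.7%, 54.8% and 47.4% of all tested genes, against 38.8% as reported.

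RNF186 replicate 2 stood apart from the other RNF186 cultures in a way that followed base composition. Over 11599 tested genes with a known GC content, its difference from the mean of RNF186 replicates 1 and 3 followed GC content with a Spearman rho of 0.74. The other cultures, each set against the remaining cultures of its group, gave -0.57 and -0.52 for RNF186 replicates 1 and 3, and 0.48, -0.13 and -0.44 for Vector replicates 1, 2 and 3. Such values describe libraries that share their comparison cultures and carry no test. Of the 10 genes, 5 were above the 80th percentile of tested genes in GC content, with NOTCH1 (64.1% GC), JAG2 (64.0%) and DLL1 (62.8%) highest. RNF186 replicate 2 held the highest value of the 3 RNF186 cultures in 9 of the 10 genes, HEY1 being the exception, against 42.9% of all tested genes. That share covers tested genes only, while 3 of the 10 are under the filter. In NOTCH2, JAG1 and DLL1 replicate 2 led the next RNF186 culture by only 0.02 to 0.03 on log2(FPKM + 1). Its departure was 0.27 for NOTCH1, 0.27 for JAG2, 0.24 for HES1 and 0.18 for DLL4 on log2(FPKM + 1). The largest departure was that of ATOH1, at 0.41 with 52.4% GC. Departures did not follow GC content throughout the 10 genes. DLL1, as GC-rich as NOTCH1 and JAG2, departed by only 0.02, and HES1 (0.24) and JAG1 (0.02) have the same GC content of 50.9%. The change between groups also followed GC content (Spearman -0.29 across genes). In the GC-poorest of 3 near-equal parts of the tested genes 24.2% were called higher and 9.98% lower, and in the GC-richest 13.0% higher and 29.2% lower. DLL4 and JAG2 were called higher in that GC-richest part. The part of base composition in the values of NOTCH1, HES1 and JAG2 was not tested beyond the length and GC correction given above.

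**Figure D4:**
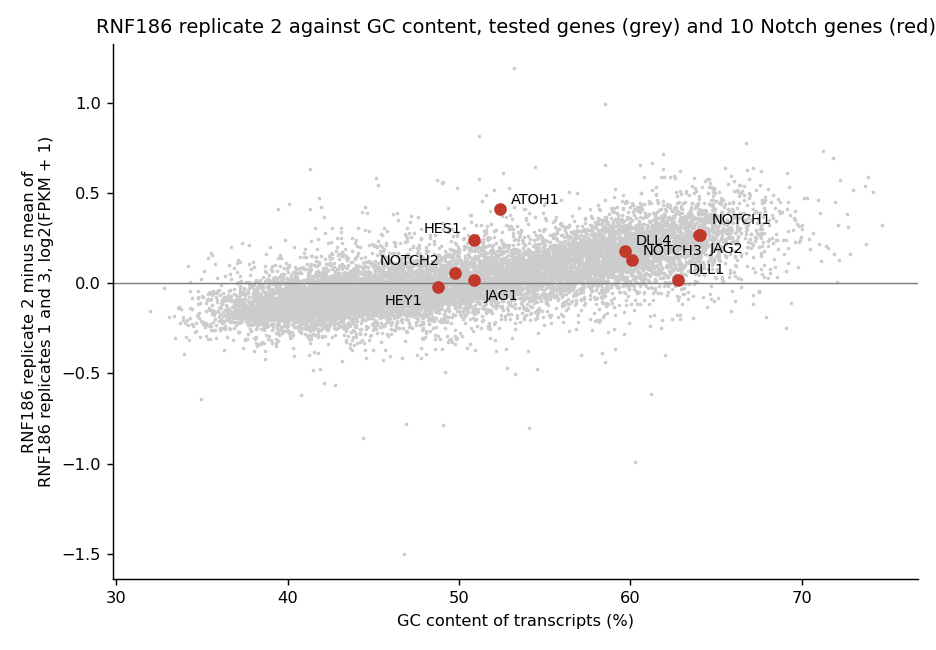
Difference of RNF186 replicate 2 from the mean of RNF186 replicates 1 and 3, on log2(FPKM + 1), against the GC content of the gene's transcripts in percent. Grey points are 11599 tested genes and red points the 10 genes. NOTCH1 and JAG2 lie at 0.27 with the GC-rich genes, and DLL1 at 0.02.

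Around these genes, other parts of the pathway were called about as often as genes in general. A list of 58 other Notch pathway genes had 57 with values and 45 tested, of which 11 rose, 8 fell and 26 were not called, beside 38.8% called over all tested genes (19.9% higher and 18.9% lower). The same shares apply to each list that follows, and with so few genes a list no count is read as particular to it. The median change was 0.00, as it was over all tested genes. DLK1, HES7, HEYL and DTX3 were listed at 0 in all 6 libraries. The number called lower depended on single libraries. It was 3 without RNF186 replicate 1, 18 without RNF186 replicate 2 and 5 without RNF186 replicate 3. It was 4 without Vector replicate 2, 5 without Vector replicate 3, 17 with array weights and 4 with TPM rescaling. Of all tested genes 28.1% were called without RNF186 replicate 1, 48.7% without RNF186 replicate 2 and 54.8% with array weights.

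Among the enzymes that cut the receptor, 3 of 8 tested rose, 1 fell and 4 were not called. PSEN2, a catalytic subunit of γ-secretase, was at 8.07 ± 0.649 FPKM in RNF186 cells and 5.85 ± 0.46 in Vector cells (change 0.40, limma, adjusted p = 0.00285). NCSTN, the subunit that receives the substrate, was at 40.8 ± 1.64 and 33.9 ± 2.3 FPKM in the same order (0.26, adjusted p = 0.00612). FURIN, which cleaves the receptor precursor in the Golgi, fell to 13.3 ± 0.996 FPKM in RNF186 cells, against 16.4 ± 0.11 in Vector cells (-0.29, adjusted p = 0.00457). ADAM10, the main protease of ligand-induced cleavage, was at 53.8 ± 3.91 and 54.3 ± 2.69 FPKM and was not called (adjusted p = 0.849).

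Of 5 tested glycosyltransferases that modify receptor and ligand, LFNG and POGLUT1 rose and the others were not called. LFNG, a Fringe enzyme that favours Delta-like over Jagged ligands, was at 23.52, 27.58 and 23.67 FPKM in RNF186 cultures and at 20.7, 19.48 and 21.42 FPKM in Vector cultures (change 0.27, limma, adjusted p = 0.0133). All RNF186 cultures were higher, and the call ended without Vector replicate 2 (adjusted p = 0.0613). POGLUT1, which adds O-glucose, rose by 0.22 (adjusted p = 0.0374), a call lost under 7 of 17 other settings. NEURL1B, a ligase of the Neuralized family that marks ligands for uptake, fell to 4.35 ± 0.543 FPKM in RNF186 cells, against 6.5 ± 0.218 in Vector cells (-0.49, adjusted p = 0.00125). The other tested ligases of that list, MIB1 and MIB2, were not called.

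In the nuclear complex, 4 of 15 tested genes rose, 5 fell and 6 were not called, beside 38.8% called over all tested genes. The number that fell ran from 1 to 8 when 1 library was left out and moved by over 1.5 times under 10 of 17 other settings. RBPJ itself, named after its values were seen, was at 26.94, 24.47 and 25.46 FPKM in RNF186 cultures and at 20.19, 21.16 and 22.84 FPKM in Vector cultures (change 0.25, limma, adjusted p = 0.00919, called under all 17 other settings). The coactivator MAML2 rose to 3.34 ± 0.171 FPKM in RNF186 cells, against 2.36 ± 0.0929 in Vector cells (0.37, adjusted p = 0.00315), and the Groucho-type corepressor TLE1 rose to 7.23 ± 0.07, against 5.54 ± 0.371 (0.33, adjusted p = 0.00327). TLE3 was the remaining rise (0.22, adjusted p = 0.0335), with its call lost under 6 of 17 other settings (adjusted p up to 0.141). The corepressor CTBP2 fell to 43.5 ± 2.12 FPKM in RNF186 cells, against 51.8 ± 1.25 in Vector cells (-0.25, adjusted p = 0.00387), and CTBP1, SPEN and the acetyltransferases EP300 and KAT2B fell by 0.15 to 0.24, each with a call lost under 2 to 10 of 17 other settings.

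Among the other HES and HEY genes, HES2 rose to 3.19 ± 0.26 FPKM in RNF186 cells, against 2.29 ± 0.215 in Vector cells (0.35, limma, adjusted p = 0.00883). HES4, HES5 and HES6 were not called, although HES4 and HES6 were called lower without RNF186 replicate 2 (limma, adjusted p = 0.0152 and 0.0268). That setting called 48.7% of all tested genes. HES6, which counteracts HES1 in the mouse, was the most abundant at 25.9 ± 5.38 FPKM in RNF186 cells and 26 ± 1.63 in Vector cells. DLK2 was the only tested gene of the remaining receptors and ligands and was not called (adjusted p = 0.365). Of 9 tested genes grouped here as brakes on the receptor, the ubiquitin ligase DTX3L rose (0.28, adjusted p = 0.00317), DTX4 fell (-0.20, adjusted p = 0.0119) and 7 were not called. Whether DTX3L and DTX4 act as brakes in these cells was not tested. The fall of DTX4 lost its call with TPM rescaling (adjusted p = 0.0537) and without RNF186 replicate 1 (0.0508). NRARP, a direct Notch target that limits the signal, was at 37.14, 39.53 and 38.57 FPKM in RNF186 cultures and at 41.02, 40.85 and 41.35 FPKM in Vector cultures. All RNF186 cultures were lower in FPKM as deposited, without rescaling for the lower summed FPKM of the RNF186 libraries. The change of -0.09 was not called (limma, adjusted p = 0.123). NRARP was called without RNF186 replicate 2 (limma, adjusted p = 0.0452), and its change turned to 0.064 with the length and GC correction.

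**Figure D5:**
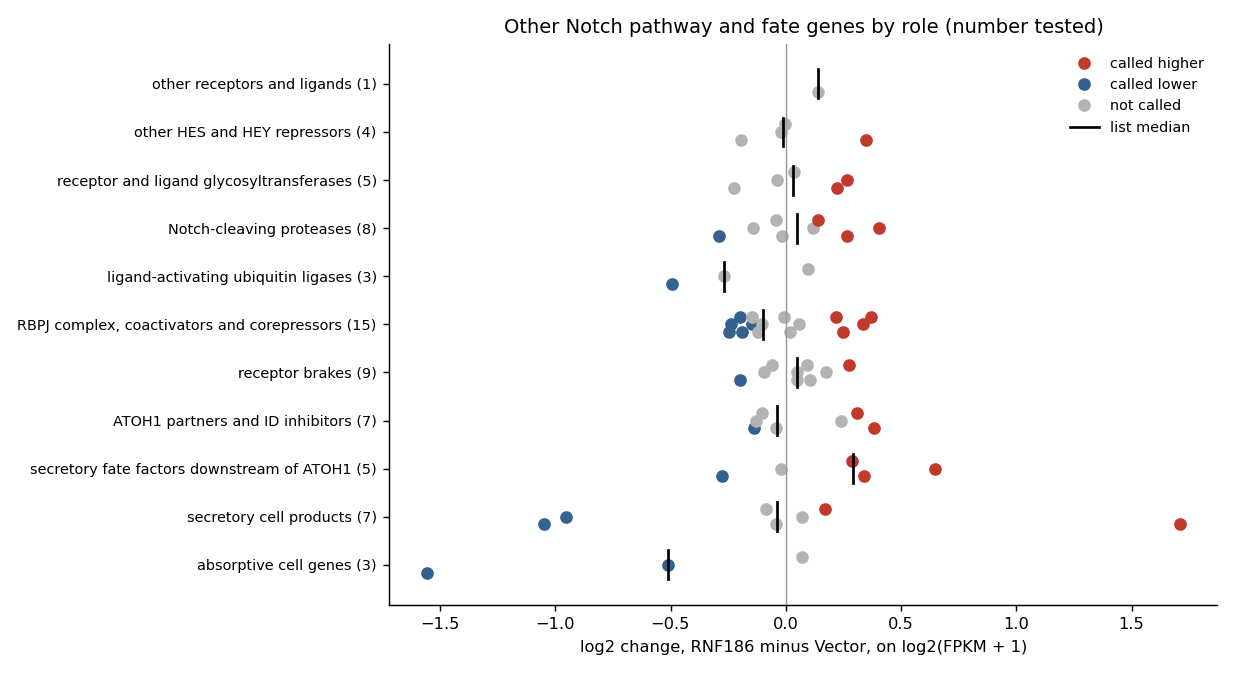
Change of the tested genes of each list, RNF186 minus Vector on log2(FPKM + 1), coloured by call, with the median of the list as a black bar and the number of tested genes in brackets. Genes of the Notch pathway lists lie between -0.49 and 0.40, and the wide changes are in the cell products, from AGR3 at -1.05 to DEFA5 at 1.71, and in FABP1 at -1.56.

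On the ATOH1 side, its helix-loop-helix partners and their inhibitors had 2 rises and 1 fall among 7 tested genes, beside 38.8% called over all tested genes. TCF12, an E-protein that pairs with factors of the ATOH1 class, rose to 39.3 ± 2.27 FPKM in RNF186 cells, against 29.9 ± 1.39 in Vector cells (0.38, limma, adjusted p = 0.000702). ID4 rose to 2.13 ± 0.0866, against 1.53 ± 0.0666 (0.31, adjusted p = 0.00979), with the call lost under quantile normalization (adjusted p = 0.0711). ID2 fell by 0.14 (adjusted p = 0.0467), a call lost under 10 of 17 other settings. ID proteins block E-proteins from binding DNA.

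Of 5 tested transcription factors that act after ATOH1 or beside it in secretory cells, 3 rose and 1 fell, beside 19.9% called higher and 18.9% called lower over all tested genes. Without Vector replicate 2 only 1 was called higher. SOX4, a factor of secretory progenitors, was at 70.58, 70.11 and 72.18 FPKM in RNF186 cultures and at 43.27, 44.44 and 47.4 FPKM in Vector cultures (0.65, limma, adjusted p = 6.17e-06). The endoplasmic reticulum factors CREB3L1 and CREB3L4 rose by 0.29 and 0.34, each with its call lost under 2 other settings. KLF4, a factor of mature goblet cells and surface cells, fell to 7.18 ± 0.508 FPKM in RNF186 cells, against 8.91 ± 0.317 in Vector cells (-0.28, adjusted p = 0.00891). Both of the best known ATOH1 targets, GFI1 and SPDEF, were under the filter and are named after their values were seen. GFI1 was at 0.69, 0.59 and 0.79 FPKM in RNF186 cultures and at 0.22, 0.28 and 0.34 FPKM in Vector cultures, with all RNF186 cultures higher. SPDEF was at 0.41, 0.41 and 0.48 FPKM in RNF186 cultures and at 0.71, 0.65 and 0.6 FPKM in Vector cultures, with all RNF186 cultures lower. In the fit without a filter GFI1 was called higher (limma, adjusted p = 0.00339) and SPDEF lower (adjusted p = 0.0145). That fit called 25.6% of all genes, and for genes picked by their values these p-values are descriptions only. The size of the differences rests on the pseudocount. With a pseudocount of 1 they were 0.40 for GFI1 and -0.21 for SPDEF, and with 0.1 they were 1.06 and -0.50.

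The products of secretory cells had 2 rises and 2 falls among 7 tested genes, beside 38.8% called over all tested genes. DEFA5, a defensin of Paneth cells, was at 11.22, 10.37 and 11.59 FPKM in RNF186 cultures and at 3.53, 2.33 and 2.32 FPKM in Vector cultures (1.71, limma, adjusted p = 3.24e-06). Its neighbour in function DEFA6 did not exceed 0.14 FPKM in RNF186 cultures or 0.28 in Vector cultures. The goblet cell peptide TFF3 was at 23.34, 32.63 and 25.15 FPKM in RNF186 cultures, against 55.99, 54.27 and 48.23 FPKM in Vector cultures (-0.95, adjusted p = 0.000116), and AGR3 fell to 16.7 ± 1.96, against 35.5 ± 2.68 (-1.05, adjusted p = 9.67e-06). AGR2 was the other rise (0.17), with its call lost under 3 other settings. The goblet mucin MUC2 was at 26.6 ± 1.66 FPKM in RNF186 cells and 25.3 ± 1.99 in Vector cells and was not called (change 0.07, 95% interval from -0.08 to 0.22, adjusted p = 0.437). Of 11 absorptive genes 3 were tested. FABP1, a fatty acid carrier, was at 1.36, 1.46 and 2.06 FPKM in RNF186 cultures, against 5.98, 7.93 and 6.24 FPKM in Vector cultures (-1.56, adjusted p = 8.52e-06), VIL1, the microvillus protein villin, fell to 60 ± 2.83, against 86.1 ± 2.4 (-0.51, adjusted p = 3.47e-05), and KRT20 was not called (adjusted p = 0.617).

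Genes whose values ran most like HES1 over the 6 libraries were GFUS (Pearson r = 0.994), LSM7 (0.993), DCTPP1 (0.991), DHX16 (0.991) and ID1 (0.99). All 5 have transcripts of 55.0 to 60.5% GC, above the 50.9% of HES1. The 6 points share their libraries, and the part of base composition in this likeness was not tested. For ATOH1 they were FAF1 (0.981), MARCHF9 (0.979), CENPN (0.977), ANKS1A (0.973) and KLHL22 (0.969). None of these 5 was called between groups (limma, adjusted p from 0.665 to 0.893). That follows from how they were chosen, because the groups overlapped in ATOH1 itself. HES1 and ATOH1 had r = 0.576 with each other, HES1 and NOTCH1 0.824, and HES1 and HEY1 -0.591. With 6 libraries in 2 groups these are descriptions only.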

How the data were processed

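Values are FPKM as deposited by the authors, to 2 decimals, for 3 RNF186 and 3 Vector libraries made with a TruSeq RNA kit, per the labels' protocols. Bowtie 0.12.2 and the mouse builds mm8 and mm9 are named in the submitters' processing notes. This contradicts the human label and the human Entrez identifiers, and retinas are given as the extracted tissue in the labels. The counting program and annotation are not given in the sources used here, nor is the handling of reads shared by paralogues.

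Of 19485 rows, 1 named no gene, 1921 had no values and 17563 were used. Symbols came from RefSeq (GRCh38.p14) and matched 17524 rows. The comparison used limma (version 3.58.1, R 4.3.3) on log2(FPKM + 1), for genes averaging at least 1 FPKM, with empirical Bayes and a variance trend and no covariates. Genes under that mean were compared by an exact permutation test. GC content is the median over the GENCODE 29 transcripts of a gene. The length and GC correction removes from each library a spline fit on both, for 99.7% of tested genes. The fit is to departures from the gene's mean over all 6 libraries. It therefore also takes out differences between the groups that follow length or GC content. The procedure was tested on simulated data. Depth is unknown, so no counting intervals are given.

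The 10 genes and all lists were chosen with earlier results of these data known. The rule for named genes takes the 10 genes, RNF186, up to 3 called genes of each list by smallest p (with none called, the most abundant), the highest marker of each other cell type and, for HES1 and ATOH1, the 5 genes with the highest Pearson r. Other genes in the text were named after their values were seen. CIR1 was not matched, and 7 other listed genes had no values. A gene counted among the cleaving enzymes is not reported here by name.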

Additional observations from a re-analysis of the deposited data

How the results depend on the processing

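Besides the 10 genes, calls over all genes were counted under each setting. Called higher were 2314 genes and called lower 2195. The 2 of the 10 genes called higher became 1 among genes averaging at least 5 FPKM and with quantile normalization, 3 with no filter and with the length and GC correction, and 1 to 2 when 1 library was left out, with 1 reached without Vector replicate 2 or 3. The 1 called lower became 2 with the length and GC correction and 3 with array weights. It was 1 to 3 when 1 library was left out, with 3 reached without RNF186 replicate 2. Of all tested genes 38.8% were called as reported, and 25.6% with no filter. The share was 47.4% with the length and GC correction, 54.8% with array weights and 48.7% without RNF186 replicate 2. Calls that the 10 genes gained under these last 3 settings therefore came with more calls over all genes. Leaving out 1 library gave 1435 to 2945 lower calls over all genes and 3 to 18 among other Notch pathway genes, where TPM rescaling gave 4 and array weights 17. With the length and GC correction NOTCH1 (0.065), NRARP (0.064), HES4 (0.071) and HES6 (0.192) changed sign. HES6, not called, was also at 0.028 with TPM rescaling and ran from -0.178 to 0.075 when 1 library was left out, and the retinal marker CRX, not called, ran from -0.199 to 0.004. The causes of these moves were not tested. Whether same-numbered dishes were handled together is not known, and the values cannot show it, because deviations between dishes also followed GC content in most libraries. Deviations of same-numbered dishes from their group means had r of -0.27, -0.07 and 0.25, and no RNF186 dish except replicate 3 correlated best with its own number. With the replicate block 2050 genes were called higher and 1987 lower, and the counts of 2 and 1 for the 10 genes did not move. With depth unknown, NOTCH3, HEY1 and ATOH1, all under 1 FPKM on average, are the least certain values.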

Other observations

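Low genes of these lists that the filter left out also differed in places. APH1B and TCF4 were picked after their values were seen, so their adjusted p-values are descriptions only. Of 57 other pathway genes with values, 12 were under the filter. Without a filter 25.6% of all genes were called. At values this low the 2 decimals of the deposited FPKM are a coarse scale. APH1B, a subunit of γ-secretase, was at 0.25, 0.3 and 0.31 FPKM in RNF186 cultures and at 0.03, 0.05 and 0.08 FPKM in Vector cultures, and was called higher in the fit without a filter (limma, adjusted p = 0.00109). Its far more abundant paralogue APH1A was at 80.3 ± 3.8 FPKM in RNF186 cells and 88.8 ± 4.51 FPKM in Vector cells (SD, n = 3 each) and was not called (limma, adjusted p = 0.0579). TCF4, an E-protein like TCF12, was at 0.12, 0.11 and 0.12 FPKM in RNF186 cultures and at 0.02, 0.02 and 0.03 FPKM in Vector cultures (without a filter, limma, adjusted p = 0.00608).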
